A study of Homo sapiens with 10 samples.

Results

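The SNX24 locus is described here by its ChIP-seq peaks for 5 transcription factors in ER-Src cells. All peaks of the 10 deposited lists whose summit lies in a span of 185001 bp set for SNX24 on chromosome 5 (hg19) were taken, and their heights were not used in the choice. This gave 42 of the 879550 peaks on chromosomes 1 to 22 and X, with summits from 122181009 to 122351067. ER-Src is a line made from MCF-10A mammary epithelial cells in which the viral oncoprotein v-Src is joined to the hormone-binding part of the estrogen receptor. Tamoxifen switches the fusion on and the cells transform, and cells of both states carry it. The libraries of transformed cells came from cultures given 1 μM tamoxifen for 12 h, and those of non-transformed cells carry EtOH (ethanol) in their titles, with 36 h in the library names inside the lists. FOS, JUN, JUNB, NFKB1, and STAT3 were each precipitated in 1 library per state, so no value below has a replicate check and no difference between states could be tested. The STAT3 antibody has in the labels the catalogue number that the laboratory lists for its tyrosine-phosphorylated form.

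SNX24 is a sorting nexin, a member of a family whose PX domain binds phosphoinositides and which takes part in traffic between endosomal membranes. FOS, JUN, and JUNB are subunits of AP-1, a dimer that binds the sequence TGANTCA. STAT3 is phosphorylated downstream of Src and of cytokine receptors and then enters the nucleus, and NFKB1 gives rise to the p50 subunit of NF-κB. In ER-Src cells these factors form an inflammatory network, and regions bound by them often lie in introns or between genes, where enhancers are found. In the RefSeq order of chromosome 5, SNX24 stands between SNX2, another sorting nexin, and PPIC, a cyclophilin.

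The laboratory probes this locus with a pair of ChIP primers, and the region they amplify is shown because it is what a ChIP measurement "at SNX24" reads. Both primers matched chromosome 5 of GRCh38 at 1 place, chr5:122846268-122846359, on the plus strand. The product is 92 bp long and starts 655 bp after the RefSeq start of SNX24 (122845613). It overlaps 0 annotated exons of GENCODE v44 and lies in intron 1. The primer sites are in capitals, the second as the reverse complement of the reverse primer.
SNX24 ChIP amplicon: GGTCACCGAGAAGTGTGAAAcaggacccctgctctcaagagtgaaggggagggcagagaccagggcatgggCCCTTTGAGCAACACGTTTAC
The peak lists use hg19 and the genome used here was GRCh38, so the product was not placed among the peaks, and no sequence was read under the peaks.

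FOS, JUN, and JUNB together had 34 of the 42 peaks (81.0%), STAT3 had 6 (14.3%), and NFKB1 had 2 (4.76%). Over all lists these shares were 76.1%, 14.0%, and 9.90%. The shares of the AP-1 proteins and of STAT3 were thus near those of the whole series, and that of NFKB1, from 2 peaks, was lower. The FOS lists held 5 peaks here in non-transformed and 10 in transformed cells. JUN had 3 and 7, JUNB had 4 and 5, STAT3 had 3 and 3, and NFKB1 had 1 and 1. The libraries of transformed cells were deeper for 4 of the 5 proteins, STAT3 being the exception, and library sizes ran from 4837474 reads (NFKB1, non-transformed) to 22082403 reads (FOS, transformed) after the authors' filter. More peaks in transformed cells thus moved together with depth for FOS, JUN, and JUNB, and the part of depth was not tested.

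The number of peaks was near the middle of that in other stretches of this length. Of 14876 tiles as long as the span with at least 1 peak of any list, from 42.5% to 69.8% held as many peaks or more in 9 libraries, and 87.5% did for NFKB1 of transformed cells. The span was at or above the tile median in 5 libraries and under it in the other 5. Its density was 0.996 times the genome-wide density for FOS in transformed cells and 0.685 times for FOS in non-transformed cells. For JUN these ratios were 0.901 and 0.604, and for JUNB 0.812 and 0.872, respectively. STAT3 had 0.613 in transformed and 1.15 in non-transformed cells. NFKB1 had 1.24 in non-transformed cells, where the span held 1 of only 13252 peaks. The lowest ratio, 0.222, was that of NFKB1 in transformed cells, where the genome-wide density was 2.43 peaks per 100 kb and the span held 1 peak. Against the density of chromosome 5 alone, the ratios of non-transformed cells were 0.956 for NFKB1 and 0.944 for STAT3. Over all lists together 58.8% of the tiles held 42 peaks or more, with a median of 50. The stretches of the same length on either side held more, 64 peaks before the span (chr5:121984999-122169999) and 90 after it (chr5:122355001-122540001). Sites of all 5 proteins in transformed cells numbered 4 before, 3 after, and 1 in the SNX24 span. In non-transformed cells they numbered 2 before, 0 after, and 1 in the span.

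**Figure D1:**
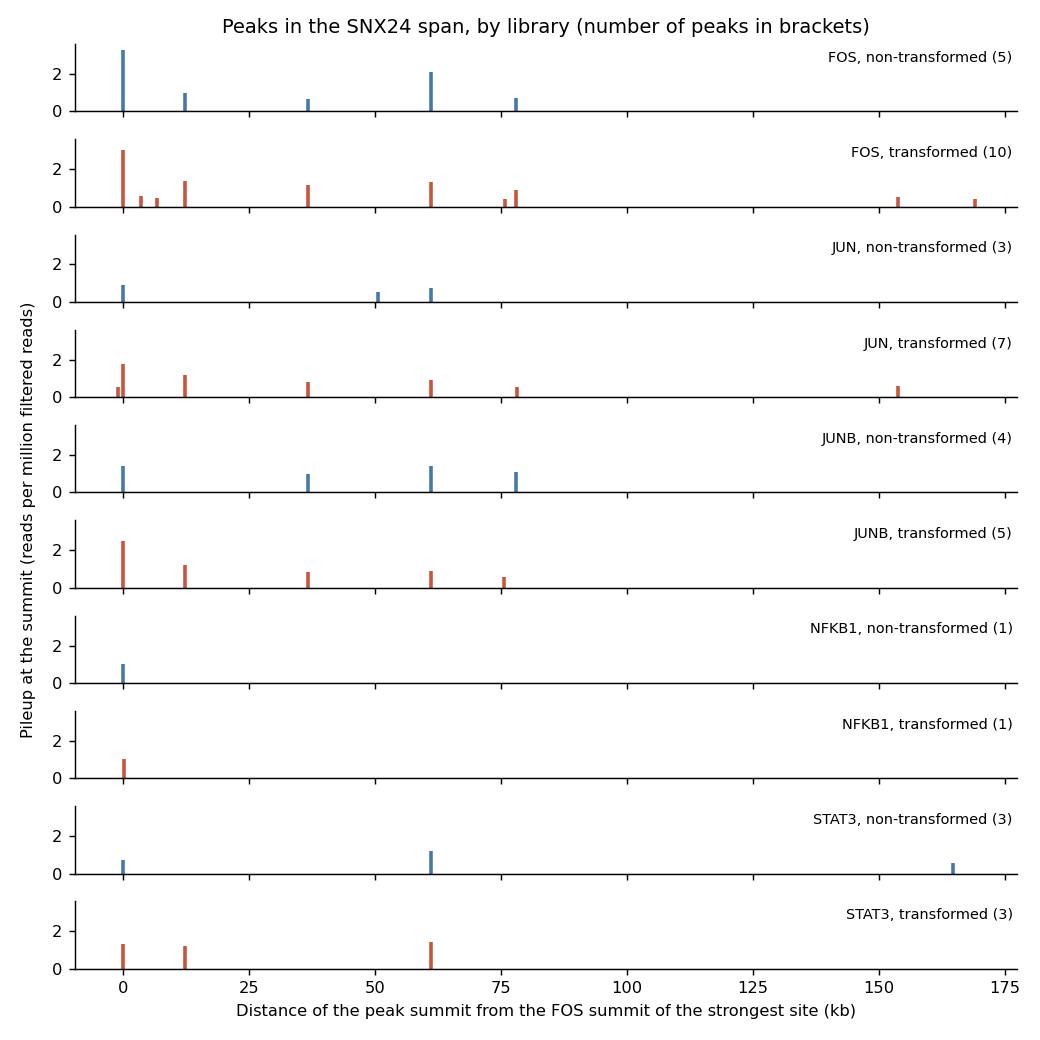
Peaks of the SNX24 span in each of the 10 libraries, drawn at the distance of the summit (kb, along chromosome 5) from the FOS summit of the strongest site, with the height giving the pileup per 1000000 filtered reads. FOS has 10 peaks in transformed and 5 in non-transformed cells, each NFKB1 library has 1 peak, at the strongest site, and the stretch between 78.0 and 154 kb is empty in all libraries.

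Windows reaching 150 bp to either side of a summit were drawn, and those sharing at least 1 bp, whatever the list, were merged into a site. The 42 peaks fell into 13 sites, numbered 1 to 13 along the chromosome, of 248897 sites over all lists. Sites 1 to 10 hold 38 of the peaks. After site 10 there was no peak in any list for 75.7 kb. Of the 13 sites, 10 had a FOS peak in some state (71.4% of all sites did), 4 had a STAT3 peak (35.8% of all sites), and 1 had an NFKB1 peak (29.1% of all sites). Peaks of transformed cells alone made up 6 of the 13 sites (34.6% of all sites), and peaks of non-transformed cells alone made up 2 (15.0% of all sites). Only site 2 had all 5 proteins in transformed cells (14.8% of all sites), and it also was the only one with all 5 in non-transformed cells (2.41% of all sites). Sites 2, 8, and 5 had the highest summed fold enrichment and held 23 of the 42 peaks. They are described in full below. Fold enrichment is the ratio of the pileup (how many extended reads cover the summit) to the local background that the peak caller MACS estimated from the same library.

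Site 2 (chr5:122181828-122182289) had a peak in all 10 libraries, a pattern found at 2.23% of all sites, and its tallest peaks were those of FOS in both states and JUNB in transformed cells. FOS gave 3.28 pileup reads per 1000000 filtered reads in non-transformed cells (95% Poisson interval 2.51 to 4.21, 61 reads) and 3.03 in transformed cells (2.35 to 3.85, 67 reads). The intervals, which cover only the counting of reads, overlapped widely, and both values were the highest of any library at the locus. Fold enrichment of FOS was 27.8 and 28.3, and the peak stood within the most significant 9.70% and 5.51% of its list, respectively.

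JUN and JUNB, possible partners of FOS in the AP-1 dimer, had larger values in transformed cells at this site. JUN gave 0.883 pileup reads per 1000000 (0.483 to 1.48, 14 reads) in non-transformed and 1.79 (1.23 to 2.51, 33 reads) in transformed cells, a ratio of 2.02 (exact interval 1.05 to 4.10). A ratio of at least 2 occurred at 14.6% of all JUN sites found in both states, and the median ratio there was 1.29. Divided by that median, the ratio at site 2 was 1.57, with an interval (0.818 to 3.18) that included 1. JUNB gave 1.42 (0.754 to 2.42, 13 reads) and 2.48 (1.76 to 3.38, 39 reads), a ratio of 1.75 (0.914 to 3.57). The median ratio of the JUNB sites found in both states was 0.957. Divided by it, the JUNB ratio at site 2 was 1.83 (0.954 to 3.73), and both JUNB intervals included 1.

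STAT3 and NFKB1 peaks at site 2 were low, and in non-transformed cells they were near the end of their lists. STAT3 had 8 reads, or 0.732 per 1000000 (0.316 to 1.44), in non-transformed and 12 reads, or 1.34 per 1000000 (0.691 to 2.34), in transformed cells. Its fold enrichment was 4.72 and 8.09. In non-transformed cells the peak ranked 38797 of 42810 by q-value, so that 90.6% of the list was at least as significant. NFKB1 had 5 reads in non-transformed and 10 reads in transformed cells, which is 1.03 per 1000000 in both (0.336 to 2.41 and 0.496 to 1.90). The former ranked 13114 of 13252 in its list. The STAT3 ratio was 1.83 (0.687 to 5.16) and the NFKB1 ratio, of summits 161 bp apart, 1.00 (0.311 to 3.73). Neither interval excluded 1. That all 5 proteins had a peak at site 2 in non-transformed cells thus rests, for these 2 proteins, on 8 and 5 reads.

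The summits at site 2 were closely spaced in transformed cells. FOS, JUN, JUNB, and STAT3 lay within 3 bp of each other (122182110 to 122182113), and NFKB1 lay 29 bp after the FOS summit. In non-transformed cells FOS, JUN, and JUNB lay from 122182098 to 122182119, whereas the STAT3 summit stood 65 bp and the NFKB1 summit 132 bp before the FOS summit of transformed cells. Those 2 peaks have 8 and 5 reads. Without them the other 8 summits fall within 41 bp, and with them within 161 bp. The median spread of all 10 summits over the 5538 sites with peaks in all 10 libraries was 111 bp. Of these sites, 64.1% had a spread of 161 bp or less, so site 2 was wider than the median. A spread without low peaks was not computed for the other sites.

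**Figure D2:**
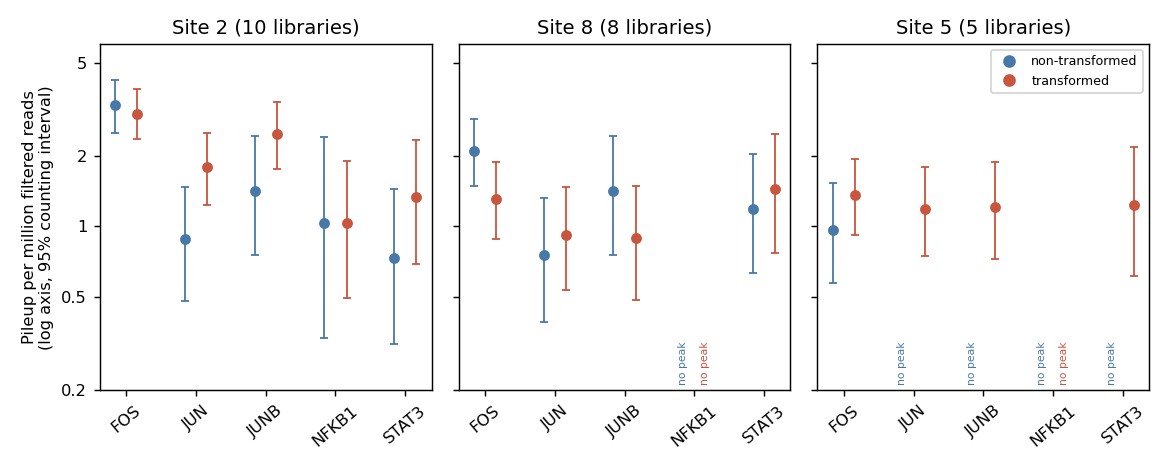
Pileup per 1000000 filtered reads (log axis) at the 3 sites with the highest summed fold enrichment, for each protein in non-transformed and transformed cells; bars are 95% Poisson intervals for counting error only, and "no peak" marks a list without a peak at the site. FOS stands highest at site 2 (3.28 and 3.03), and the intervals of the 2 states overlap for every protein with a peak in both.

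Among the 5538 sites with peaks in all 10 libraries, the pileup per 1000000 of site 2 was average for FOS. It was low for NFKB1 and STAT3 in both states and for JUN in non-transformed cells. Local background was not taken out of these values. At site 2 it was 1.47 to 1.63 times the library-wide level, and that of the 5538 sites was not computed. The FOS pileup per 1000000 was at or above that of 51.6% of these sites in non-transformed and 64.5% in transformed cells. JUNB stood at or above 31.3% and 49.7%, and JUN at or above 16.0% and 39.1%. NFKB1 exceeded or matched 7.11% and 9.95% of the sites, and STAT3 7.40% and 15.0%. The NFKB1 value of non-transformed cells rests on 5 reads, where the lowest pileup of that list was 4. Its interval (0.336 to 2.41) held the median of these sites, 1.65, so this rank is uncertain. In transformed cells the median STAT3 value of these sites was 2.90 pileup reads per 1000000, against 1.34 at site 2, and the median NFKB1 value was 2.27, against 1.03.

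**Figure D3:**
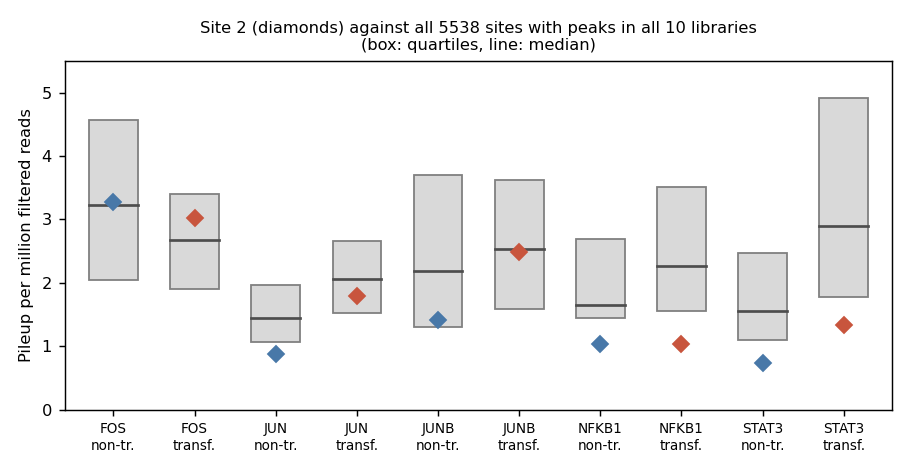
Pileup per 1000000 filtered reads at site 2 (diamonds) in each library, beside the quartiles (box) and the median (line) over the 5538 sites that have a peak in all 10 libraries. The FOS diamonds lie inside the box. Those of NFKB1 (1.03 in both states), STAT3 (0.732 and 1.34), and JUN in non-transformed cells (0.883) lie under it.

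Site 8 (chr5:122242962-122243323), 61.0 kb after site 2, had FOS, JUN, JUNB, and STAT3 in both states and no NFKB1 peak. This pattern was found at 0.479% of all sites. FOS gave 2.09 pileup reads per 1000000 (1.49 to 2.86, 39 reads) in non-transformed and 1.31 (0.880 to 1.89, 29 reads) in transformed cells, a ratio of 0.627 (0.374 to 1.04). JUNB gave 1.42 (13 reads) and 0.889 (14 reads), with a ratio of 0.628 (0.274 to 1.45). JUN gave 0.757 (12 reads) and 0.921 (17 reads), with a ratio of 1.22 (0.548 to 2.79). All 3 intervals included 1, and no AP-1 protein passed a ratio of 2 in either direction.

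STAT3 had its tallest peaks of the locus at site 8. It gave 1.19 pileup reads per 1000000 (0.633 to 2.03, 13 reads) in non-transformed and 1.45 (0.772 to 2.48, 13 reads) in transformed cells, with a ratio of 1.22 (0.521 to 2.85). Over all STAT3 sites found in both states the median ratio was 1.68, and 38.0% of them had a ratio of at least 2. Thus 31.7% of these sites had a ratio at or below that of site 8, and the ratio divided by that median was 0.727, on the other side of 1. The 8 summits fell within 61 bp.

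Site 5 (chr5:122194173-122194532), 12.2 kb after site 2, differed most in its list of proteins between the states. In non-transformed cells it had a FOS peak only, with 0.967 pileup reads per 1000000 (0.573 to 1.53, 18 reads). In transformed cells it had FOS with 1.36 (0.917 to 1.94, 30 reads), JUN with 1.19 (0.747 to 1.80, 22 reads), JUNB with 1.21 (0.726 to 1.88, 19 reads), and STAT3 with 1.23 (0.612 to 2.19, 11 reads). The FOS ratio was 1.41 (0.758 to 2.68). The 4 summits of transformed cells lay within 59 bp. The same pattern was seen at 2031 sites, 0.816% of all. An absent peak means that the q-value cutoff of 0.05 was not passed and not that reads were absent, so the levels of JUN, JUNB, and STAT3 in non-transformed cells are unknown here.

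The other sites were weaker and held AP-1 peaks, apart from site 12. Site 6 (36.6 kb after site 2) had FOS and JUNB in both states and JUN in transformed cells, with fold enrichments of 5.82 to 11.2. FOS gave 0.644 and 1.18 pileup reads per 1000000 there, with a ratio of 1.83 (0.890 to 3.97), and JUNB gave 0.981 and 0.825, with a ratio of 0.842 (0.333 to 2.23). Site 10 (78.0 kb) had FOS in both states, with 0.698 and 0.906 per 1000000 and a ratio of 1.30 (0.614 to 2.84). At this site JUNB had a peak in non-transformed cells only (10 reads), and JUN in transformed cells only (10 reads). Site 9 (75.7 kb) held FOS and JUNB of transformed cells with 9 reads each, and site 11 (154 kb) FOS and JUN of transformed cells with 11 reads each and summits 3 bp apart.

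Of the 13 sites, 6 (46.2%) rested on 1 peak in 1 library, against 38.7% of all sites. They were sites 3, 4, and 13 with FOS and site 1 with JUN, all of transformed cells, and site 7 with JUN and site 12 with STAT3, both of non-transformed cells. Their peaks had 6 to 12 reads and fold enrichments of 3.70 to 5.42, and from 70.0% to 99.9% of their own list was at least as significant.

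Set side by side by protein, the states shared 13 pairs of peaks. FOS had 5 peaks in transformed cells with none in non-transformed cells, of 10 (39.3% of all FOS peaks), and none of its 5 peaks in non-transformed cells was missing from the other list (17.0% of all were). JUN had 5 of 7 in transformed cells only (49.3% of all JUN peaks) and 1 of 3 in non-transformed cells only (21.0%). JUNB had 2 of 5 (44.8%) and 1 of 4 (25.6%). STAT3 had 1 of 3 (61.6%) and 1 of 3 (29.1%), and NFKB1 had 0 of 1 (83.8%) and 0 of 1 (10.7%). Of the 13 shared pairs, 8 had a ratio over 1, and 4 changed their side of 1 under another scaling. The interval excluded 1 for 1 of the 13 pairs, JUN at site 2, and no allowance was made for the number of intervals. Ratios of at least 2 occurred at 8.43% of the FOS, 7.74% of the JUNB, and 9.13% of the NFKB1 sites found in both states, and no pair of these proteins at the locus had one. No pair had a ratio of 0.5 or less, which occurred at 6.72% of FOS, 1.28% of JUN, 7.47% of JUNB, 7.06% of NFKB1, and 1.47% of STAT3 sites.

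The read density around the peaks of SNX24 was higher than around most other peaks of the same libraries. The local background of MACS draws on a mean over 1 Mb of the ChIP library itself, reads in peaks included. This background was backed out of the deposited fold enrichment and divided by the background of the whole library. At the peaks of the span it was 1.44 to 1.63 times the library-wide level in all 10 libraries, whereas the median over all peaks of a list was 1.01 to 1.04. Only 5.69% to 10.8% of the peaks in each list had a background at or above the median of the span. In bins of 10 Mb along chromosome 5 no library median was under 1.0, so stretches with fewer reads may not show. The medians of the libraries were 1.07 to 1.33 in the bin before the one that holds the locus. They were 1.49 to 1.66 in the bin of the locus, and 1.29 to 1.66 in the bin 30 Mb after it. A peak at SNX24 therefore needed more reads to reach a given fold enrichment than a peak at the library-wide background. The ratio was 1.44 to 1.56 at peaks of non-transformed cells and 1.47 to 1.63 at those of transformed cells. Its part in the peak counts of the locus was not tested.

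**Figure D4:**
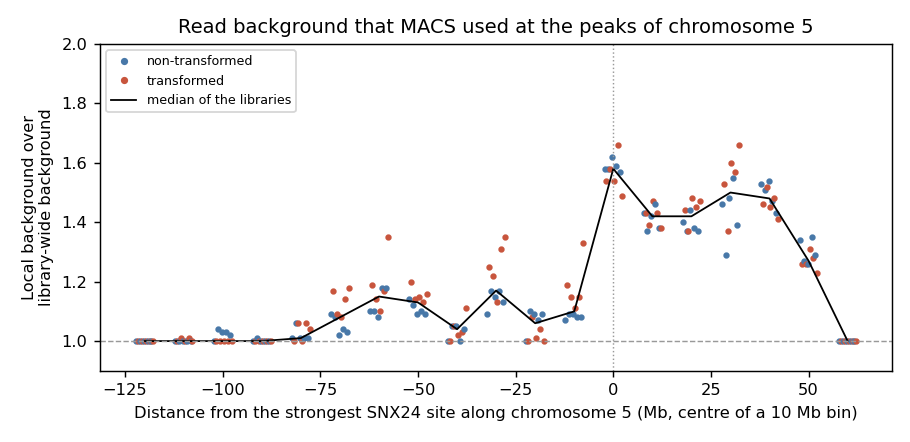
Local background that MACS used at the peaks of chromosome 5, as a multiple of the library-wide background, in bins of 10 Mb by distance (Mb) from the strongest SNX24 site; dots are library medians and the line is the median of the 10 libraries. The line is at 1.10 in the bin before the locus and at 1.58 in the bin that holds it.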

How the data were processed

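ChIP-seq peak lists of ER-Src cells were used, with 1 library per protein and state, assigned from the sample titles. Per the labels, reads were aligned with Bowtie to hg19. Per the file headers, the authors called peaks in each library with MACS 2.0.10.20131216 from reads of 36 bp and no control library, with at most 1 read per position, a background over 1000000 bp, and a q-value cutoff of 0.05. The deposited pileup is a signal of extended reads over the summit, not scaled by depth. The deposited significance is −log10 of the p-value and q-value, and the deposited fold enrichment is a ratio to the local background.

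Pileups were divided by the filtered reads of the library. Levels have exact Poisson intervals and ratios Clopper-Pearson intervals (95%), which cover counting error only. The background of MACS was solved from the fold enrichment with a pseudocount of 1, and the p-values computed from it differed from the deposited ones by a median of 6.6e-06 or less on the −log10 scale in every list. Primers were matched to GRCh38. The rule for sites described in full was the highest summed fold enrichment, and named sites were those with all 5 proteins in a state, the highest fold enrichment of a library, or peaks of 1 state only in 3 or more proteins. The span, the rule, and the alternatives were chosen with earlier results of these data known. Overlap and interval code was tested on simulated data. Python 3.11.15, numpy 2.4.6, pandas 2.3.3, scipy 1.17.1, and matplotlib 3.10.9 were used. Motif searches under the peaks were not run, since no genome of hg19 was used here.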

Additional observations from a re-analysis of the deposited data

How the results depend on the processing

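No paired analysis was possible because each protein and state has 1 library, and for the same reason no library could be left out. Of 142 values under alternatives, 98 stayed within 1.5 times or, for ratios and densities, within their counting interval, and 44 moved. Many of these intervals are wide, such as 0.311 to 3.73 for the NFKB1 ratio at site 2. A value that stayed within such an interval is therefore weak evidence that it is stable. The only ratio of at least 2, that of JUN at site 2, stayed over 1 under every scaling. Whole peaks, counting peak intervals that overlap the span, merging summits of a list, and chromosome 5 as the denominator moved none of the values computed with them. Sites were at least 969 bp apart and held at most 1 peak per list. Merging summits of a list therefore could not change a count. Against chromosome 5, density ratios of non-transformed cells fell under 1, from 1.24 to 0.956 (NFKB1) and from 1.15 to 0.944 (STAT3). Ratios stayed within their counting intervals under every scaling, of which division by fragment length was chosen after seeing the data, but 4 whose intervals included 1 changed their side of it. Division by the median ratio gave 0.944 for JUN and 0.727 for STAT3 at site 8, and fold enrichment gave 1.02 for FOS at site 2 and 1.08 for JUNB at site 6. At site 2, JUN was under a ratio of 2 after division by the median ratio (1.57), JUNB was over it by fold enrichment (2.22), and STAT3 was over it per fragment length (2.30). With windows of 50 bp the NFKB1 peaks of site 2 no longer met, which gave 1 peak of each state without a partner. The stricter threshold (−log10 q-value of at least 9.41) left 5 sites, numbers 2, 5, 6, 8, and 10, and 0 sites of all 5 proteins in either state. In non-transformed cells it left 3 peaks of FOS, 2 of JUNB, and 0 of the other proteins. In transformed cells it left 5 of FOS, 4 of JUN, 2 of JUNB, 2 of STAT3, and 0 of NFKB1. The density was thus 0 for JUN and STAT3 in non-transformed cells and for NFKB1 in both states. The density ratio of JUN in transformed cells went from 0.901 to 1.03 under this threshold. In transformed cells, peaks without a partner in the other state were then 2 for FOS, 4 for JUN, 1 for JUNB, 2 for STAT3, and 0 for NFKB1. In non-transformed cells they were 1 for JUNB and 0 for the other proteins. A minimum of 2 pileup reads per 1000000 left 2 sites, 0 of them with all 5 proteins, with 2 FOS peaks in non-transformed cells, 1 FOS and 1 JUNB peak in transformed cells, and 0 peaks in the other 7 libraries. The JUNB peak and 1 FOS peak of non-transformed cells then had no partner, and all other such counts were 0. The NFKB1 library of non-transformed cells was the shallowest (4837474 reads), and an absent peak there says least.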
